A study of Mus musculus with 8 samples.

Results

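The small heat shock genes described here are Hspb1, Hspb2, Hspb3, Hspb6, Hspb7, Hspb8 and Cryab, 7 of the 18193 genes that the array annotation names with a single symbol. Every probe set (a group of short probes read out as 1 value) annotated to exactly 1 of these symbols was taken, which gave 14 of the 45037 probe sets in the table. Values are on the log2 scale, so a difference of 1 is a 2-fold change. They come from RNA of the whole aorta of 8 mouse samples, 4 mutant and 4 control, hybridized to Affymetrix arrays. The mutants carried SRF-flex2neo, a floxed gene of serum response factor (SRF), together with SM22CreERT2ki/+, a tamoxifen-inducible Cre recombinase knocked into Tagln, which encodes SM22 of smooth muscle. Their control littermates carried SRF-flex2neo without the Cre allele named in the labels, so loss of Srf and presence of the Cre allele cannot be told apart. Both groups were 4 months old, received 1 mg of tamoxifen into the peritoneum for 3 days and were killed 8 days after the injection. The Cre acts in cells that use the SM22 gene, and the other cells of the vessel wall keep Srf. The sample titles number 2 array sets, each with 2 control and 2 mutant arrays, and no source used here says what separates the sets. Controls 1 and 2 and mutants 1 and 2 are set 1, and controls 3 and 4 and mutants 3 and 4 are set 2. The labels do not state that each array came from its own mouse, so the p-values measure only how far these arrays vary, which could be a technical spread.

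Array medians were 3.72 to 3.98. All 12 smooth muscle markers listed passed the filter on dim probe sets, with list means of 13.09 to 13.57. Mutant 2 stood apart from the other 7 arrays, with correlations to them of 0.961 to 0.974. Its mean over 6 markers of nerve and Schwann cells was 10.04, against 2.88 to 3.56 on the other arrays, and its mean over 7 fat markers was 12.11, against 8.30 to 10.65. The sets differed in markers of striated muscle, which includes the heart: the mean over 14 tested markers was 4.38 to 5.73 in set 1 and 6.76 to 8.01 in set 2, and 5 further markers (Myh1, Myh2, Tnnt3, Tnni2 and Ryr1, most of them of skeletal muscle) lay below the filter. The 2 probe sets of Srf itself differed by -0.20 (SE 0.19, limma adjusted p = 0.686) and -0.03 (SE 0.15, adjusted p = 0.939). The differences were -0.485 and -0.21 in set 1 alone, and 0.09 and 0.15 in set 2 alone. Mutant 2 was the lowest array on both. These probe sets do not check the deletion because no source used here places them relative to the deleted part.

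Small heat shock proteins share an alpha-crystallin domain, assemble into oligomers and hold unfolding proteins in a soluble state without using ATP. In smooth and striated muscle they bind actin, desmin and other parts of the cytoskeleton. Hspb1 encodes HSP25, the mouse form of HSP27, which binds actin filaments and is induced by heat and other stress. Cryab encodes alphaB-crystallin, a chaperone of desmin and of lens proteins. Hspb8 encodes HSP22, which works with the co-chaperone BAG3 to send damaged cytoskeletal proteins to autophagy. Hspb6 encodes HSP20, a target of the cyclic nucleotide kinases in relaxing smooth muscle. Hspb7 encodes the cardiovascular small heat shock protein, and Hspb2 and Hspb3 encode a pair that is best known from heart and skeletal muscle. Heat shock factors switch on stress-inducible chaperone genes through heat shock elements, which are built of the unit GAA and its inverse TTC.

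The start regions of 3 members are shown because all 3 hold letters of a heat shock element, and because Hspb1 and Hspb8 passed the test between array sets below while Hspb6 did not (the difference between these genes was not tested). Each runs 5′ to 3′ on the strand of the gene, from 250 bases before to 50 bases after the annotated start, from RefSeq on build GRCm38.p6. Capitals mark the matches to GAANNTTC. Hspb1 is at chr5:135887669-135887968 on the plus strand, Hspb8 at chr5:116422815-116423114 on the minus strand, and the second of 2 listed start regions of Hspb6 at chr7:30553051-30553350 on the plus strand.
Hspb1: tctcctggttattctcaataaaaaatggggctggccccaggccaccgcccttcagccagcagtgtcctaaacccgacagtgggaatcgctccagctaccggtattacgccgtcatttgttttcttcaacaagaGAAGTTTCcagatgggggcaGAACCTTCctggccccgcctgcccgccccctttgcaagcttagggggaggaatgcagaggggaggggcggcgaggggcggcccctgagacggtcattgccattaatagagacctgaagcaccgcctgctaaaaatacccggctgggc
Hspb8: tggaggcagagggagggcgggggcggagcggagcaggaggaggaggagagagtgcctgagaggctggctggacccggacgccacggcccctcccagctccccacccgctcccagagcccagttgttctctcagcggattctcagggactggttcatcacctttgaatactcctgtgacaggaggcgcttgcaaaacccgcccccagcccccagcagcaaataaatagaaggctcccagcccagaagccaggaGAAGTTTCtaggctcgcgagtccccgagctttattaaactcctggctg
Hspb6: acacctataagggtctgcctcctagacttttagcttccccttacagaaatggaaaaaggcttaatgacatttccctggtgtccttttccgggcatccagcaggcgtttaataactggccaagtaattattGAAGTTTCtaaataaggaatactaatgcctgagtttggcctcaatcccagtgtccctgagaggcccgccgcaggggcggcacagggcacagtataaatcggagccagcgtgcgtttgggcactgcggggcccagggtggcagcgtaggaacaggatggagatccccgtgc

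The Hspb1 region holds 2 matches, GAAGTTTC at bases -117 to -110 and GAACCTTC at bases -97 to -90 from the start. The Hspb8 region holds GAAGTTTC at bases 3 to 10, inside the transcribed part, and the Hspb6 region holds GAAGTTTC at bases -120 to -113. Hspb3 has 1 match (GAATTTTC, bases -224 to -217), and the first Hspb6 region and that of Hspb7 have none. Of 32851 start regions of the same length, 7.86% hold GAANNTTC. The inverse arrangement TTCNNGAA occurs in 8.52% and in no region of these members, and 15.1% hold either. Both motifs read the same on the 2 strands. The CArG box, the motif known to be bound by SRF, was searched by its consensus, which also reads the same on both strands. It occurs in 1.63% of the regions and in none of the 6 listed for these members. Regions for 5 of the 7 genes were found, and Cryab and Hspb2 were not among them. Those 2 genes are neighbours, and the RefSeq range of Hspb2 lies within that of Cryab. These matches describe letters only, and binding was not measured.

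Of the 14 probe sets, 12 passed the filter and were tested. Hspb3 was not: its single probe set (1449872_at) read 2.18 to 2.27 on all 8 arrays, below the lowest mean kept of 2.97. The third probe set of Cryab (1435837_at) read 2.63 to 2.75 and was left out too. In a fit without the filter these 2 differed between genotypes by -0.01 and -0.02 (limma adjusted p = 0.863 and 0.872). So 6 of the 7 genes have values that can be compared.

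**Figure D1:**
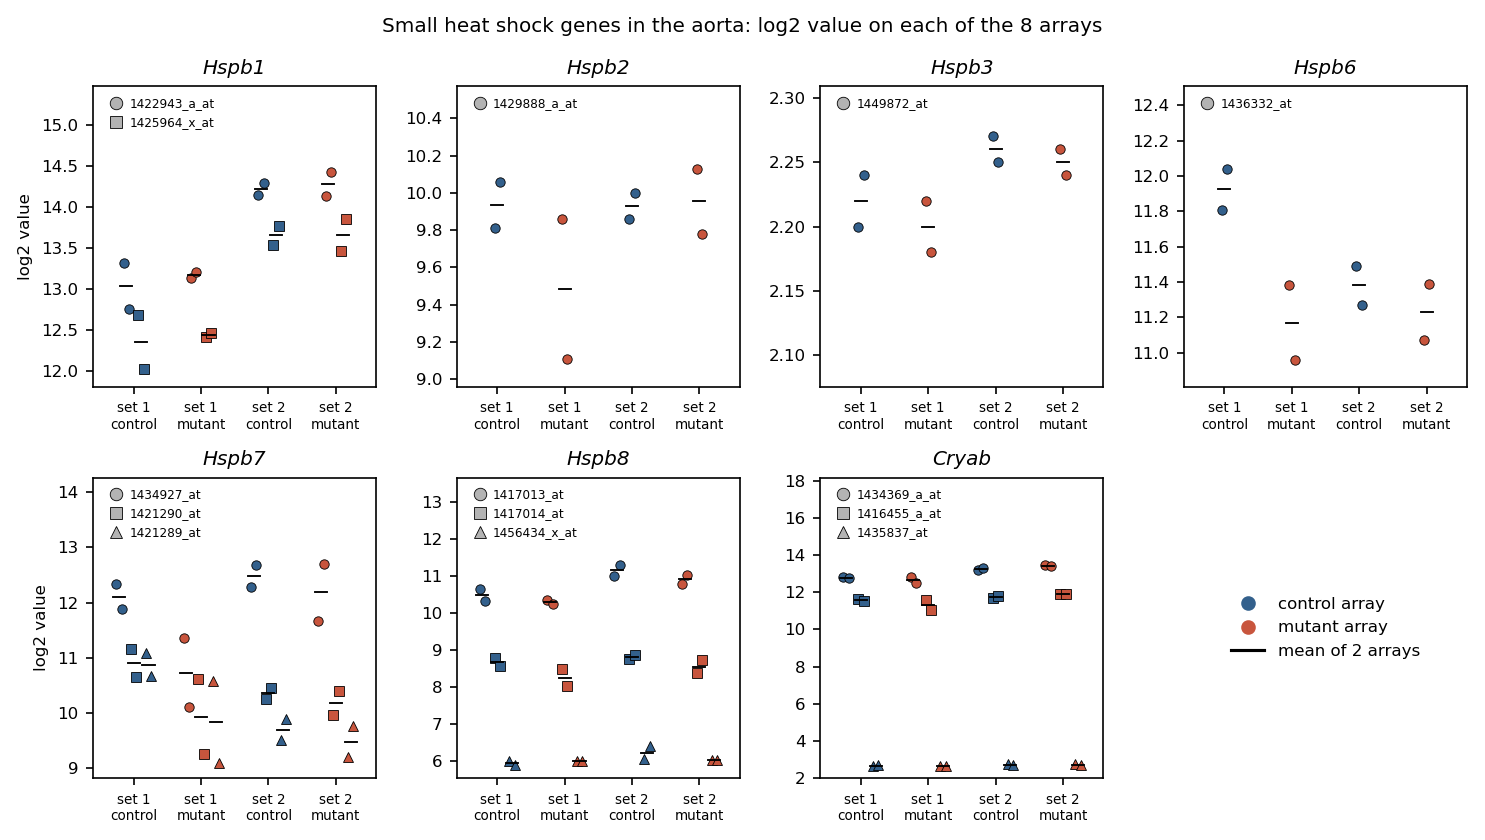
Log2 value (vertical axis, a separate range for each gene) of all 14 probe sets of the 7 small heat shock genes on each array, by set and genotype; each symbol shape is 1 probe set, each point 1 array, and each bar the mean of 2 arrays. The Hspb1 points of set 2 lie above those of set 1 in both genotypes, while those of Hspb7 spread widest among the mutants.

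No small heat shock gene passed the test between mutant and control aorta. With limma, 0 of the 12 probe sets passed an adjusted p of 0.05, as did 0% of all 27021 probe sets tested, and the members' adjusted p values ran from 0.501 to 0.917. At an unadjusted p under 0.05 there were 2 of the 12, both lower in mutants, where 9.55% of all probe sets met that level and 5.05% met it as lower in mutants. Mutant and control arrays overlapped in all 12, while they did not overlap in 3% of all probe sets. In all, 9 of the 12 were lower in mutants and 3 higher, or 11 lower and 1 higher after each array was centred on its median. The 12 come from 6 genes. The median difference over all 27021 probe sets was itself -0.035, and -0.1075 after that centring. The share of all probe sets lower in mutants was not counted. The median difference over the 6 genes, each by its brightest probe set, was -0.22, against -0.02 over all 12173 genes tested, and it was -0.11 without mutant 2. In whole tissue, fewer cells of a type and less RNA per cell cannot be told apart. Cell type markers also differed in level between genotypes, 0 of them past an adjusted p of 0.05 in limma. All 12 of smooth muscle were lower in mutants (7 at an unadjusted p under 0.05), with list means of 13.45 to 13.57 in controls and 13.09 to 13.24 in mutants. Tagln (-0.29) is among them and is the gene that holds the Cre allele in mutants. All 12 endothelial markers were higher (9 at that level), with means of 7.34 to 8.30 and 7.97 to 9.94, as were 10 of 10 tested fibroblast markers (9 at that level), with means of 9.29 to 10.77 and 10.72 to 11.11, and 10 of 10 tested leukocyte markers (9 at that level), with means of 5.37 to 6.34 and 6.40 to 7.69. The median endothelial difference was 1.36 in set 1 and 0.54 in set 2, and the leukocyte one was 1.99 and 0.485. The fibroblast median was also smaller in set 2, at 0.85. No marker of these lists passed the limma interaction of genotype and set. All 7 tested fat markers were higher in mutants too (0 at an unadjusted p under 0.05). Their median difference was 2.76 in set 1 and -0.54 in set 2. Mutant 1 had a fat mean of 10.65, against 8.30 and 8.98 in the controls of its set. All 6 tested nerve markers were higher (0 at that level), with a median of 3.90 in set 1 and -0.01 in set 2. The part of these cell types in the members' differences was not tested.

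Hspb1, the stress-inducible actin-binding member, was nearly level between genotypes. Its brighter probe set (1422943_a_at) read 13.32 and 12.76 in controls and 13.13 and 13.21 in mutants of set 1. In set 2 it read 14.15 and 14.29 in controls and 14.14 and 14.43 in mutants. Control and mutant arrays overlapped in both sets, and control 2 was the lowest of the 8. The means were 13.63 ± 0.72 in controls (SD, n = 4) and 13.73 ± 0.66 in mutants, a difference of 0.10 with a 95% confidence interval of -0.21 to 0.41. The other probe set (1425964_x_at), of a type whose probes can match further transcripts, followed it closely and differed by 0.05 (interval -0.32 to 0.42). Neither interval includes a 2-fold change.

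Cryab also showed no difference that could be told from the spread. Its brightest probe set (1434369_a_at) read 12.82 and 12.74 in controls and 12.84 and 12.50 in mutants of set 1, and 13.19 and 13.31 in controls and 13.46 and 13.39 in mutants of set 2. Mutants were on either side of the controls, lower on average in set 1 (-0.11) and higher in set 2 (0.18). The difference over both sets was 0.03 (SE 0.10, interval -0.20 to 0.27). The second probe set (1416455_a_at) differed by -0.06 (SE 0.14), with mutant 2 at 11.04 as the lowest of its 8 values, which otherwise ran from 11.55 to 11.92. Hspb2, the neighbour of Cryab, read 9.81 and 10.06 in controls and 9.86 and 9.11 in mutants of set 1. In set 2 it read 9.86 and 10.00 in controls and 10.13 and 9.78 in mutants. Mutant 2 was again the lowest array, and the Hspb2 difference of -0.21 (SE 0.20) became -0.02 without it.

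Hspb6, which encodes HSP20, was 1 of the 2 probe sets with an unadjusted p under 0.05, and the other was a dimmer one of Hspb8. Its only probe set (1436332_at) read 11.81 and 12.04 in controls and 11.38 and 10.96 in mutants of set 1, where both mutants lay below both controls. In set 2 it read 11.49 and 11.27 in controls and 11.07 and 11.39 in mutants, and the groups overlapped. The means were 11.65 ± 0.34 in controls and 11.20 ± 0.22 in mutants (SD, n = 4), a difference of -0.45 (SE 0.17, interval -0.85 to -0.05, limma adjusted p = 0.501). Set 1 alone gave -0.76, set 2 alone -0.15, and the arrays without mutant 2 gave -0.31. A test of the difference between the sets did not pass (limma interaction adjusted p = 0.824).

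Hspb7 had the most negative difference of the 12 and the widest spread among mutants. Its brightest probe set (1434927_at) read 12.33 and 11.89 in controls and 11.36 and 10.10 in mutants of set 1, and 12.28 and 12.69 in controls and 11.67 and 12.70 in mutants of set 2. Mutants 1, 2 and 3 lay below all controls, and mutant 4 was the highest of the 8 arrays. The SD was 0.33 in controls and 1.07 in mutants, and the difference was -0.84 (SE 0.39, interval -1.77 to 0.09, limma adjusted p = 0.552). It was -1.38 in set 1 and -0.30 in set 2, and -0.48 without mutant 2. The other probe sets, 1421290_at and 1421289_at, differed by -0.57 (SE 0.33) and -0.63 (SE 0.36), and by -0.22 and -0.25 without mutant 2. The 3 probe sets gave the genotypes in the same order in both sets, but mutant 2, the array with the high nerve and fat markers, was the lowest value in each.

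Hspb8, the partner of BAG3, was a little lower in mutants without passing. Its brightest probe set (1417013_at) read 10.63 and 10.32 in controls and 10.33 and 10.23 in mutants of set 1, and 10.99 and 11.30 in controls and 10.78 and 11.03 in mutants of set 2. The difference was -0.22 (SE 0.11, interval -0.47 to 0.04), at -0.19 in set 1 and -0.24 in set 2. A dimmer probe set (1417014_at) read 8.57 to 8.87 in controls and 8.01 to 8.71 in mutants, with 3 mutants below all controls, and differed by -0.35 (SE 0.14, limma adjusted p = 0.508). The dimmest (1456434_x_at) read 5.90 to 6.40 on all arrays and differed by -0.07 (SE 0.12).

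**Figure D2:**
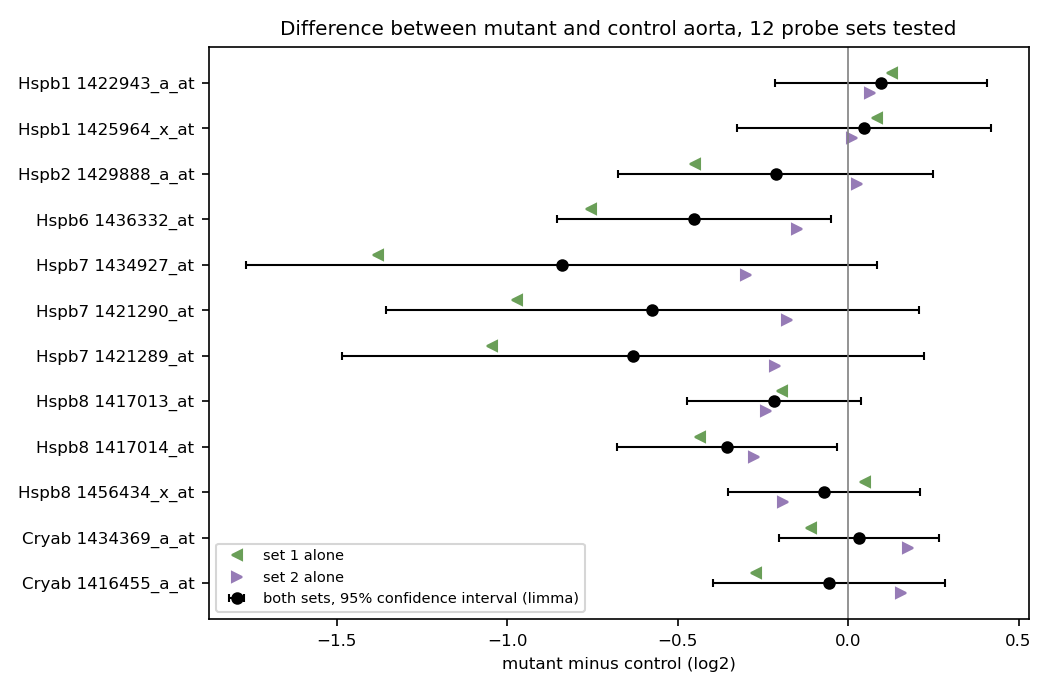
Difference between mutant and control arrays (log2, horizontal axis) for the 12 probe sets tested; black points with bars are the limma estimate over both sets with its 95% confidence interval, and triangles are the differences within set 1 and set 2. The intervals of Hspb6 (-0.85 to -0.05) and of Hspb8 1417014_at do not reach 0 but neither passes after adjustment, and set 1 lies left of set 2 in all 3 probe sets of Hspb7.

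The genotype difference of the members was not shown to depend on the set. In a limma fit with an interaction of genotype and set, 0 of the 12 probe sets passed, as against 0.0518% of all probe sets, and 0 of the 12 had an unadjusted p under 0.05. The adjusted p values were 0.824 to 0.964. One probe set of Cryab, 1416455_a_at, passed when mutant 1 was left out (interaction 0.70, adjusted p = 0.0248), which leaves mutant 2 as the only mutant of set 1, assumed to vary like the other arrays.

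Part of the family differed between the sets, as did many other probe sets. Hspb1, Hspb8 and Cryab were higher in set 2 than in set 1 in both genotypes, by 1.53 to 2.40 times in the 4 probe sets that passed. In the same limma fit 4 of the 12 probe sets passed, all higher in set 2, where 21.4% of all probe sets passed, 10.9% higher and 10.6% lower. The 2 sets did not overlap in 6 of the 12, against 31.7% of all probe sets. These 6 are probe sets of Hspb1, Hspb8 and Cryab only. In Hspb8 1456434_x_at the sets were apart only by 6.01 against 6.03. The median over the 6 genes was 0.63 and over all genes tested 0.00. The sets hold equal numbers of both genotypes, and no label says how they differ.

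Hspb1 had the largest set difference among the 12. On its brighter probe set the mean was 13.11 ± 0.24 in set 1 and 14.25 ± 0.14 in set 2 (SD, n = 4 arrays), a difference of 1.15 (SE 0.13, limma adjusted p = 0.00215), or 2.21-fold. The highest array of set 1 (13.32) lay below the lowest of set 2 (14.14). The x_at probe set gave 1.26 (SE 0.16, limma adjusted p = 0.0028). Hspb8 rose from 10.38 ± 0.17 to 11.03 ± 0.21 on its brightest probe set, by 0.65 (SE 0.11, limma adjusted p = 0.00756), with no overlap between 10.63 and 10.78. Its other probe sets differed by 0.21 and 0.15 and did not pass, so the probe sets of Hspb8 disagree on the size. Cryab rose from 12.73 ± 0.16 to 13.34 ± 0.12 on its brightest probe set, by 0.61 (SE 0.10, limma adjusted p = 0.00696). Its second probe set differed by 0.37 (SE 0.14, adjusted p = 0.106) and passed without mutant 2 (0.22, adjusted p = 0.0396) or with array weights (0.26, adjusted p = 0.0325).

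Hspb2, Hspb6 and Hspb7 did not pass between the sets. Hspb2 differed by 0.23 (SE 0.20) and Hspb6 by -0.24 (SE 0.17), and their sets overlapped. The probe sets of Hspb7 disagreed in direction: the brightest was 0.92 higher in set 2 (SE 0.39), 1421290_at differed by -0.15 (SE 0.33) and 1421289_at by -0.77 (SE 0.36). The last passed, as lower in set 2, without mutant 2 (-1.15, limma adjusted p = 0.00627) or with array weights (-1.05, adjusted p = 0.00677). With each set's mean subtracted the 3 followed each other closely over the 8 arrays, at r = 0.96 to 1.00, with mutant 2 the lowest on each. They gave the same order of arrays in set 1. In set 2 the brightest read mutant 4 (12.70) just above control 4 (12.69), and the others read it below. They disagreed on the step between sets. No direction between sets can be given for Hspb7 from these values.

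The other chaperones listed differed between the sets too. The list holds 23 heat-inducible and constitutive chaperones and their regulators, of which 21 had a named probe set and all 21 were tested. Most are cytosolic, but Hspd1 and Hspe1 encode mitochondrial chaperones, and Hspe1 is among those that passed as higher in set 2. Between sets 12 of the 21 passed as higher in set 2 and 1 as lower, where 10.9% of all probe sets passed as higher and 10.6% as lower. The median over the 21 was 0.60. Hsph1, which encodes the large chaperone HSP105, went from 11.00 to 12.58 (difference 1.58, SE 0.19, limma adjusted p = 0.00229). The stress-inducible HSP70 gene Hspa1b went from 12.09 to 13.65 (1.56, SE 0.42, adjusted p = 0.0401) and its near-identical copy Hspa1a from 10.00 to 11.49 (1.49, SE 0.41, adjusted p = 0.0417). Probes may not tell these copies apart. The constitutive HSP70 gene Hspa8 was higher by 0.68 (SE 0.10) and the HSP90 gene Hsp90aa1 by 0.60 (SE 0.10), both passing. Hsbp1, whose product binds heat shock factor, was the one that passed as lower (-0.38, SE 0.06). The mean over the 21 genes was 9.98 to 10.39 in set 1 and 10.57 to 10.90 in set 2, with no overlap. Control 2 was the lowest array for this mean (9.98), for Hspb1 (12.76) and for Hspa1b (11.00).

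**Figure D3:**
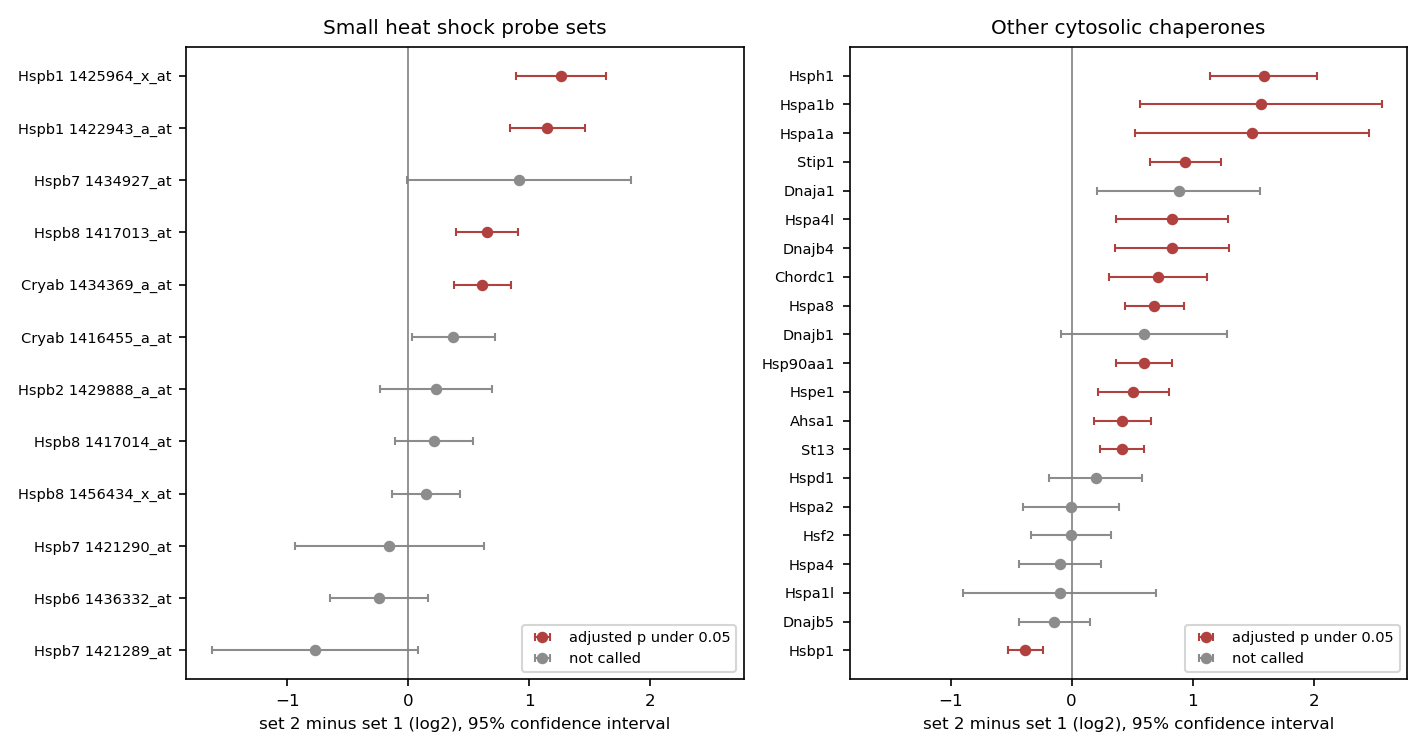
Difference between set 2 and set 1 (log2, horizontal axis) with 95% confidence intervals from limma. The 12 small heat shock probe sets are on the left. The 21 other chaperone genes tested are on the right, with the mitochondrial Hspd1 and Hspe1 among them. Red points passed an adjusted p of 0.05. Hspb1, Hspb8 and Cryab have 4 red points, all to the right of 0, and the other chaperones have 13, of which 12 lie to the right.

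In the list of BAG3 partners and of the cytoskeletal proteins that this route handles, 2 of 16 genes passed between the sets, both higher in set 2. They were Bag3 (0.66, SE 0.11, limma adjusted p = 0.00766) and the autophagy gene Wipi1 (0.40, SE 0.09, adjusted p = 0.0211). Bag3 read 9.68 to 9.82 in set 1 and 10.10 to 10.58 in set 2. Of all probe sets 10.9% passed as higher in set 2, so a count of 2 in 16 is near the background, and the sets of 31.7% of all probe sets did not overlap either.

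Striated muscle markers differed between the sets too. Small heat shock proteins are found in striated muscle as well as in smooth muscle. By their brightest probe sets Hspb1, Hspb8 and Cryab passed between the sets, and Hspb2, Hspb6 and Hspb7 did not. Of 14 striated muscle markers tested, 8 passed as higher in set 2 and 0 as lower. The cardiac myosin gene Myh6 went from 6.02 to 10.73 and the myoglobin gene Mb from 5.21 to 10.23. Of 12 endothelial markers, 7 passed as lower in set 2. The part of these tissues in the set differences was not tested. In the comparison of genotypes 9 of the 14 striated markers were lower and 5 higher, with a median of -0.06.

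**Figure D4:**
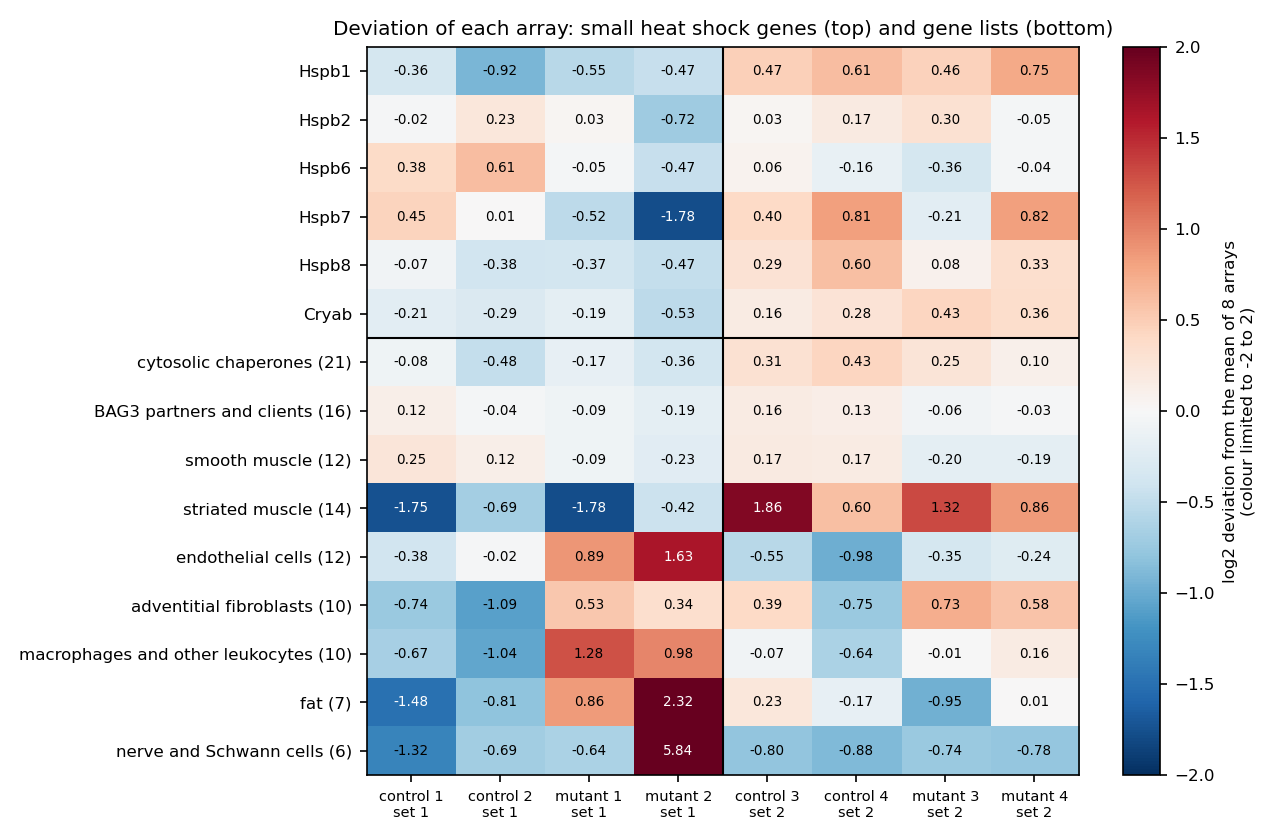
Log2 deviation of each array from the mean of the 8 arrays, for the brightest probe set of the 6 small heat shock genes tested (top rows) and for the mean of each gene list (bottom rows, number of genes in brackets); columns are arrays, set 1 left and set 2 right, and colour stops at -2 and 2. Hspb1, Hspb8, Cryab and the row labelled cytosolic chaperones are below 0 on every array of set 1 and above 0 on all of set 2. That row also holds the mitochondrial Hspd1 and Hspe1. Mutant 2 is at -1.78 for Hspb7 and 5.84 for nerve and Schwann cell markers.

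Between genotypes, the pathway genes with the smallest p did not pass either. Among the other chaperones listed 0 of 21 passed (10 lower, 11 higher, median 0.00). Among the BAG3 partners and clients 0 of 16 passed (12 lower, 4 higher, median -0.09). At an unadjusted limma p under 0.05 there were 3 genes in each list, where 9.55% of all probe sets met that level. In the first these were Dnajb5 (a J-domain co-chaperone, -0.56, SE 0.12), Hspa1l (an HSP70 gene next to the inducible ones, -1.15, SE 0.33) and Hspa2 (an HSP70 gene best known from testis, -0.56, SE 0.17). In the second they were Bag2 (a regulator of HSP70, -0.64, SE 0.12), Synpo2 (an actin-binding protein, -0.48, SE 0.15) and Des (desmin, -0.78, SE 0.30). Synpo2 and Des are also in the smooth muscle list. For all of these but Des, the 4 mutants lay below the 4 controls; the genotypes did not overlap in 3% of all probe sets, and these genes were picked for their small p. The adjusted p values of the 6 were 0.375 to 0.507. Of the remaining genes listed with this family, Hspb11 was the only one tested (-0.10, SE 0.11, limma adjusted p = 0.727), and Cryaa, Hspb9 and Odf1 lay below the filter. Hspb11 was listed by its symbol, and no source used here shows that its product holds the alpha-crystallin domain.

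Among themselves the 6 genes followed each other in part. Over all 8 arrays, with the sets mixed, 12 of the 15 pairs of brightest probe sets correlated above 0, with the highest values for Hspb1 with Hspb8 (r = 0.91) and Hspb1 with Cryab (r = 0.90). After each set's mean was subtracted these were 0.43 and 0.03, while 13 of the 15 pairs were above 0 (median 0.41). In the same set-centred values Hspb6 with Hspb7 stood at 0.86, Hspb2 with Cryab at 0.74 and Hspb7 with Hspb8 at 0.74, while Hspb1 with Hspb2 stood at -0.54. These correlations are descriptions over 8 arrays that share the 2 array sets and, in mutant 2, 1 array that lies low for several members. By the same set-centred measure, the gene outside the family most like Hspb1 was Gtf2ird2 (r = 0.99), then Aldh3a1 (0.97). For the others these were Ssna1 and Fgf13 for Hspb2 (0.99 each), Tut4 and Paf1 for Hspb6 (0.98 each), Anxa4 and Appl1 for Hspb7 (1.00 and 0.99), Zyg11b and Wsb2 for Hspb8 (0.98 each), and Casp9 and Hdac5 for Cryab (0.99 and 0.98). Each is the highest pair among the 12173 genes tested, so high values come with the search.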

How the data were processed

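RNA of 8 aorta samples was measured on Affymetrix arrays. The authors deposited 1 log2 value per probe set and array (0.9 to 15.82; the log scale was read from this range). The submitters' processing notes name GCOS and no version of it. How background, normalization and summary were done is not given in the sources used. Groups came from the labels, replicates were numbered in sample order, and the set is the number closing each title. No further normalization was applied. A filter removed the dimmest 40% of probe sets, by their mean on all arrays. Genotype and set were fitted to 27021 probe sets with limma 3.58.1 (R 4.3.3) using a mean-variance trend. P-values are two-sided, adjusted by Benjamini-Hochberg over all of them, at a threshold of 0.05; SE is the moderated standard error and intervals cover 95%. The fit was tested on simulated data. Where 1 value per gene was needed, the probe set with the highest mean was used.

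Described genes are all probe sets of the 7 members, up to 3 genes with the smallest p per pathway list, and the 2 genes most like each member by correlation after subtracting set means. Other genes named with values (Hsph1, Hspa1a, Hspa1b, Hspa8, Hsp90aa1, Hsbp1, Bag3, Wipi1, Myh6, Mb) were chosen after their values were seen. Members, lists and tests were chosen with earlier results of these data known. Some listed genes, among them Hsp90ab1 and Hsf1, had no probe set with a single symbol in the annotation used and were not analysed here. No 2 arrays were alike beyond 24.7% of values. Alternatives were no filter, a filter of 60%, quantile normalization, median centring, no set term, no trend, robust variance, array weights, each set alone, each array left out and, for values per gene, all of a gene's probe sets. All per-sample columns were used. Figures were drawn with matplotlib 3.10.9 in Python 3.11.15.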

Additional observations from a re-analysis of the deposited data

How the results depend on the processing

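No alternative made a small heat shock probe set or a listed chaperone gene pass between genotypes. Over all probe sets 10 passed with array weights, and 0 to 11 when single arrays were left out, the 11 without control 3. The 4 probe sets called between array sets passed in all 15 alternatives with a set term, and 6 passed with array weights or without mutant 2. Genotype differences that passed no test changed sign as follows. Median centring gave -0.025 for Hspb1 1425964_x_at and -0.04 for Cryab 1434369_a_at, and interactions of 0.06 (Hspb1 1422943_a_at), 0.05 (Hspb1 1425964_x_at) and 0.08 (Hspb8 1417013_at). Set 1 alone gave 0.05 for Hspb8 1456434_x_at and -0.11 for Cryab 1434369_a_at. Set 2 alone gave 0.025 for Hspb2 and 0.16 for Cryab 1416455_a_at, for which array weights gave 0.07. With single arrays left out the genotype difference ran from -0.021 to 0.20 (Hspb1 1422943_a_at), -0.09 to 0.17 (Hspb1 1425964_x_at), -0.12 to 0.026 (Hspb8 1456434_x_at), -0.02 to 0.13 (Cryab 1434369_a_at) and -0.13 to 0.10 (Cryab 1416455_a_at). The interaction ran from -0.35 to 0.22 and -0.40 to 0.25 for these probe sets of Hspb1, from -0.20 to 0.11 for Hspb8 1417013_at and from -0.075 to 0.40 for Hspb8 1417014_at. The set difference of Hspb7 1421290_at ran from -0.51 to 0.038. Median centring moves the difference of every probe set by the same amount, and likewise every interaction. The cause of the other changes was not tested. The median over the 6 genes stayed below 0, from -0.32 to -0.06. No paired analysis was possible because the replicate numbers follow sample order only, and a control and a mutant with 1 number are not a pair. With 4 arrays a group, 2 of them per set, the number of arrays limits the precision, and Hspb3 was too dim to compare.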
